A study of Homo sapiens with 4 samples.

Results

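Mirror-image peaks are regions in which a peak list had 1 plus-strand peak and 1 minus-strand peak over nearly the same span. A span runs from the start to the end of a peak. Introns that a spliced peak may hold were not taken out, so the widths and shared bases given below are those of spans. A pair was taken where 2 peaks lay on the same chromosome and on opposite strands and shared at least 90% of the width of the longer peak, and both peaks of a pair are members. The rule used positions and strands and no measured level. It found 151 pairs, or 302 of the 18993 peaks (1.59%), among 2104 pairs of peaks that overlapped on opposite strands by any length. Another 3138 peaks overlapped the opposite strand by less, and 15553 did not overlap it.

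Both strands of a stretch of DNA can be transcribed. Neighbouring genes can be divergent, with start regions that face away from each other (head-to-head), or convergent, with 3′ ends that run into each other (tail-to-tail), and one gene can lie inside another on the other strand. Many antisense and divergent long noncoding RNAs (lncRNAs) are transcribed this way from the start regions of protein-coding genes, and their names often end in AS1, DT or OS. PRMT5 is an arginine methyltransferase that works in a complex with WDR77, and the study examined it as an RNA-binding protein.

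PRMT5 was immunoprecipitated with its RNA through FLAG (PRMT5 RIP) from Jurkat cells, a human T cell line established from a leukemia, and this RNA was compared with input RNA of such cells. There were 2 PRMT5 RIP libraries and 2 input libraries. All 4 came from cells that had received PHA, a lectin that activates T cells, for 48 hours and had been fixed with UV light, which the labels give as 264 nm at 400 mJ, so no library of unstimulated or unfixed cells stands beside them, and no immunoprecipitation without PRMT5 was analysed here. The libraries were made with a directional kit, which keeps the strand of the RNA, but the way in which reads were given to a strand in counting is not stated in the sources used here. At each peak the list has 1 RPM value (RPM, reads scaled to the size of the library) of PRMT5 RIP and 1 of input, both pooled over the libraries and rounded to 0.01. No value below therefore has an error or a replicate test, the depth per library is unknown, and the labels do not say whether the libraries came from separate cultures. Of 13 T cell genes used as markers, 12 had a peak, the exception being PTPRC, and of 7 markers of other lineages only the B cell gene CD79A did, with 2 peaks.

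The pairs lay on 21 chromosomes, most often on chromosomes 11 and 16, with 16 pairs each, and on chromosomes 17 and 19, with 15 each. None was on the mitochondrial genome. The 2 peaks of a pair were displaced against each other by a median of 4 nt at their starts, and by at most 10 nt in 126 pairs. They had the same width in 110 pairs and the same start and end in 12. Member peaks were 25 nt to 9882 nt wide, with a median of 222 nt against 275 nt for the whole list, and 14 of them (4.64%) were wider than 1000 nt against 32.5% of the list. Their width was a multiple of 25 nt in 270 peaks (89.4%), against 53.0% of the list.

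The sequences under some pairs are shown because both peaks of such a pair span the same bases, read from either side. They come from the RefSeq promoter windows of GRCh38.p14, which run from 250 bases before to 50 bases after a gene's start, and the coordinates are those of the same build. At the head-to-head pair of UQCRQ, which encodes a subunit of respiratory complex III, and GDF9, a growth factor of the oocyte, the peaks shared 73 nt, chr5:132866632-132866704. The plus strand, which is the sense of UQCRQ, and the minus strand, the sense of GDF9, are each given 5′ to 3′ and in lower case for these 73 nt.

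UQCRQ strand: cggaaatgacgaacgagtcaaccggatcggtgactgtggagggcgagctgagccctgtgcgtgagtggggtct

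GDF9 strand: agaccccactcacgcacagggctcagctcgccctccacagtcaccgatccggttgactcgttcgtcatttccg

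The windows that follow are given on the strand of the named gene, with capitals for the bases that both peaks of the pair share. GDF9 is on the minus strand with the window chr5:132866602-132866901, and UQCRQ on the plus strand with the window chr5:132866392-132866691. KIF9, a kinesin on the minus strand, has the window chr3:47282750-47283049, and KLHL18, an adaptor of a ubiquitin ligase on the plus strand, has chr3:47282694-47282993. BCL2L12 is on the plus strand, with the window chr19:49665683-49665982. ARL6IP4 is on the plus strand with the window chr12:122980588-122980887, and ALDOA, a glycolytic enzyme also on the plus strand, has chr16:30064247-30064546. ARL6IP4 and ALDOA are shown because they stand near opposite ends of the range of PRMT5 RIP over input among the pairs.

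UQCRQ: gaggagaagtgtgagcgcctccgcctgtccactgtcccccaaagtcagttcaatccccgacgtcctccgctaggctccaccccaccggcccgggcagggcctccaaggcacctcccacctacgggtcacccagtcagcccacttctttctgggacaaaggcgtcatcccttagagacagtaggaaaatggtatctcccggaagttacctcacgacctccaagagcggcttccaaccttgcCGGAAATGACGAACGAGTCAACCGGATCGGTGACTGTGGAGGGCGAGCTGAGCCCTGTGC

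GDF9: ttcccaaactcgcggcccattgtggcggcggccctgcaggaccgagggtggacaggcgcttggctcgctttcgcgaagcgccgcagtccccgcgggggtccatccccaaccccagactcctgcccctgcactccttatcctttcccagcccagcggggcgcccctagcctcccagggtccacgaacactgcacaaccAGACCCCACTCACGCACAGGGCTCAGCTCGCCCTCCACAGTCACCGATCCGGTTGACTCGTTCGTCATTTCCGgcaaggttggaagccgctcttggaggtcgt

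KIF9: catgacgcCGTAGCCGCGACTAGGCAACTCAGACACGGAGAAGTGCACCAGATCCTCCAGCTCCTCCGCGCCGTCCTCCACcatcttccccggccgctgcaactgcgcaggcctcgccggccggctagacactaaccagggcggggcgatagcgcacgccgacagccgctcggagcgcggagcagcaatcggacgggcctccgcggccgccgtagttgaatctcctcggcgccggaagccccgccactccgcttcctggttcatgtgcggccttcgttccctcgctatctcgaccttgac

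KLHL18: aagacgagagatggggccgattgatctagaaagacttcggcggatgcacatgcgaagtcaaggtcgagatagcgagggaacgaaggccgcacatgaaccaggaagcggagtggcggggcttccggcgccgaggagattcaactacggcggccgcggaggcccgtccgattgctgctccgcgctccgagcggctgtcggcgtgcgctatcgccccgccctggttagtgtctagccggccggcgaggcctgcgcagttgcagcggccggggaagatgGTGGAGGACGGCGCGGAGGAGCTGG

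BCL2L12: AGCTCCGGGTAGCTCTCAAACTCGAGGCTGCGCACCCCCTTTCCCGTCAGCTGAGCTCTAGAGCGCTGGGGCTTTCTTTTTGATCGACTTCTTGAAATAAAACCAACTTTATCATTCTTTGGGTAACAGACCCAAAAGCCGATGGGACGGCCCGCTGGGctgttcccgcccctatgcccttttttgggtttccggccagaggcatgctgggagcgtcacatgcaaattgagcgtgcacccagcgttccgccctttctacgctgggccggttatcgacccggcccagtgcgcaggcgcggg

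ARL6IP4: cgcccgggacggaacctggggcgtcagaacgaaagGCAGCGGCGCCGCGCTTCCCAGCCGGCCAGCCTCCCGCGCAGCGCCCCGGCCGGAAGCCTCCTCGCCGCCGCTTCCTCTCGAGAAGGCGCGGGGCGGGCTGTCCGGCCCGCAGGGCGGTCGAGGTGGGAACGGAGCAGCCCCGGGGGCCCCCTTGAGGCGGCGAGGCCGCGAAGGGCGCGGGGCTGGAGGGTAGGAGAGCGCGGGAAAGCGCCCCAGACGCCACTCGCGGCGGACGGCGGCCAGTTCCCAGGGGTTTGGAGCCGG

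ALDOA: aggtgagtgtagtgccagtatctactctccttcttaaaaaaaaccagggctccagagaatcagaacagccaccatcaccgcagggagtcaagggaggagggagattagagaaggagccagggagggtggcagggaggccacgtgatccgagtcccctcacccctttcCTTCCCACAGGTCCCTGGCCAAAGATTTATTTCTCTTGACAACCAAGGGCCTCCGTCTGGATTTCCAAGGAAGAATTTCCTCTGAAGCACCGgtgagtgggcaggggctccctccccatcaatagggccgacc

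In these windows the capitals cover all 73 nt shared by the UQCRQ and GDF9 peaks in the GDF9 window and 60 nt of them in the UQCRQ window. In the ARL6IP4 window they cover 265 of 692 shared nt, and in the ALDOA window all 92. At 39 of the 151 pairs the shared bases touched a RefSeq promoter window, 7 pairs lay on a chromosome whose windows were not used here, and 56 windows were touched in all, of 35116 in the table. Windows on both strands were touched at 12 pairs. In 7 pairs the shared bases lay wholly inside 1 window, those of ALDOA, DCTPP1, SPAG7, HAR1B, TADA3, KIF9 and GDF9. The touched windows had a median GC content of 66.8% against 58.7% over all windows, and a median of 30 CG dinucleotides against 14. The letters TATAAA, looked for on both strands, were in 3 touched windows (5.36%) and in 11.5% of all windows. All windows include those that no peak of the list touches. Windows touched by other peaks were not compared, so these values need not be particular to mirror-image pairs.

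The 2 strands of a pair had nearly the same level in most pairs. On the log2(RPM + 0.01) scale the absolute difference between strands had a median of 0.023 in PRMT5 RIP and 0.032 in input. The RPM values were within 10% of each other in 117 pairs in PRMT5 RIP and in 113 in input. They were equal to the last digit, 0.01 RPM, in 40 pairs (26.5%) in PRMT5 RIP, in 45 (29.8%) in input, and in both in 28. In PRMT5 RIP the plus-strand peak was higher in 57 pairs and the minus-strand peak in 54, and in input in 48 and 58. Across the 151 pairs the log2 levels of the strands had a Pearson's r of 0.956 in PRMT5 RIP and 0.959 in input, a description of pairs that share libraries and bases. Whether the same reads entered both values of a pair was not tested.

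**Figure D1:**
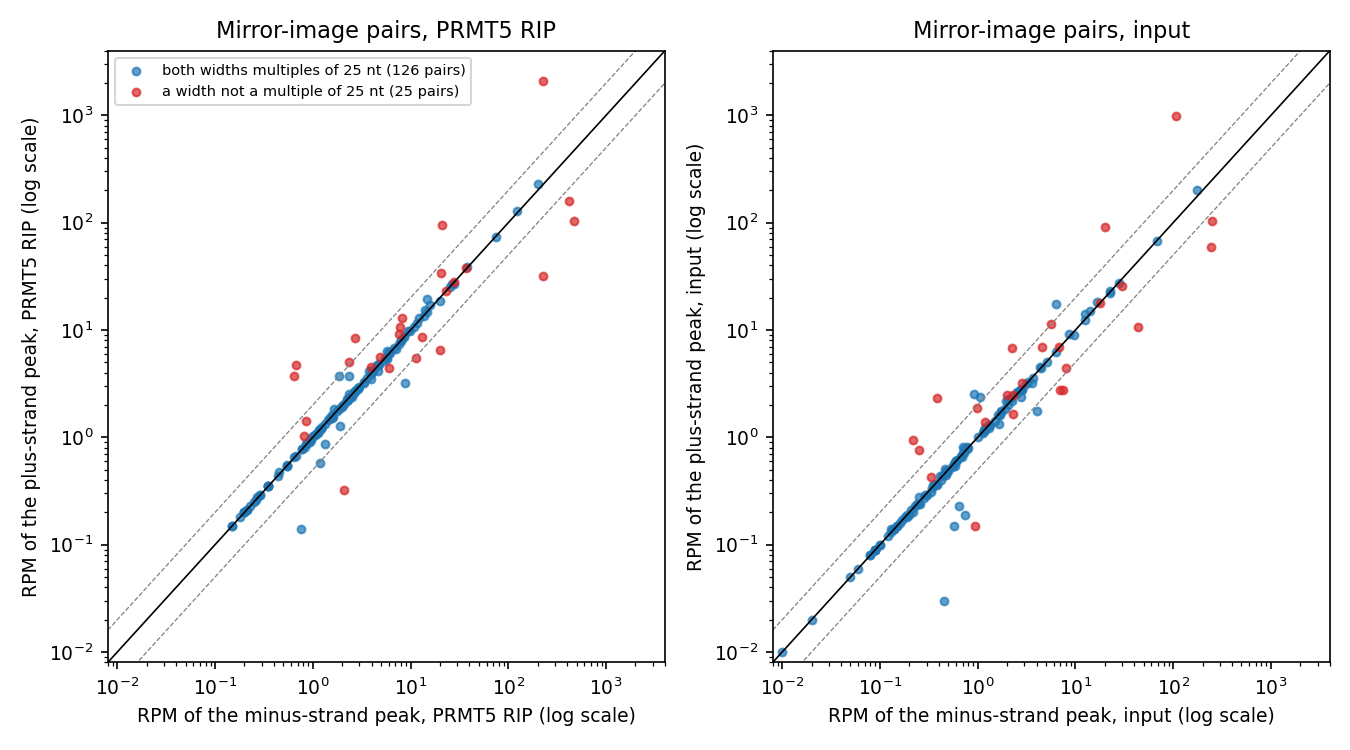
RPM of the plus-strand peak (vertical axis) against the minus-strand peak (horizontal axis) of the 151 pairs, in PRMT5 RIP (left) and input (right), both axes on a log scale, 1 point per pair, with the line of equality and dashed lines at 2-fold. Most points lie on the line, and the pairs beyond 2-fold, 16 in PRMT5 RIP and 20 in input, are mostly among the 25 pairs with a width that is not a multiple of 25 nt (red).

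The 12 pairs with the same start and end on both strands show this most plainly. In 9 of them both values were the same on the 2 strands. CCNH, the cyclin of the CDK-activating kinase, had 4.79 RPM in PRMT5 RIP with 2.75 RPM in input on its own strand and on the opposite strand. At the head-to-head pair of DCAF11, an adaptor of a ubiquitin ligase, and NRL, a transcription factor known from photoreceptors, both strands had 1.51 RPM in PRMT5 RIP with 0.60 RPM in input. The other 7 were the loci of ZBTB1 and ZBTB25 (1.34 RPM in PRMT5 RIP on each strand), SGO1 and SGO1-AS1 (1.5), IFNAR1 (0.95), MFSD12 (2.77), EID2B (2.40), PSMD11 (0.54) and ZNF821 (0.15). At the last 5 of these, 1 strand had no RefSeq gene of known strand.

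The remaining 3 of the 12 lay within one locus, where RAET1E-AS1 and LRP11 start head-to-head on chromosome 6, and their strands differed by a fixed amount of RPM. The pair of 75 nt had 0.58 RPM on the RAET1E-AS1 strand and 1.19 RPM on the LRP11 strand in PRMT5 RIP, with 0.23 and 0.65 RPM in input. The pair of 25 nt had 0.14 and 0.76 RPM in PRMT5 RIP, with 0.03 and 0.45 RPM in input. The pair of 200 nt had 1.28 and 1.89 RPM in PRMT5 RIP, with 0.15 and 0.57 RPM in input. The minus strand thus exceeded the plus strand by 0.61, 0.62 and 0.61 RPM in PRMT5 RIP and by 0.42 RPM in input at all 3, although the peaks differed in width and level. At 9 other pairs of genes with more than 1 mirror-image pair no fixed excess of more than 0.03 RPM recurred in PRMT5 RIP. The largest excess of the minus strand there was 0.45 RPM, at one of the SLC5A10 and GRAP pairs, where the neighbouring pair had 0.02 RPM. In the other direction the differences were larger. The minus strand less the plus strand was -6.14 RPM at one ARL6IP4 pair and -0.7 RPM at one SETD1B pair, with 0.09 and -0.01 RPM at their neighbouring pairs.

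The difference between strands was larger in wide pairs. The 25 pairs of at most 50 nt had a median absolute log2 difference of 0.000 in PRMT5 RIP, and 19 of them had equal values, at a median level of only 0.29 RPM, where a step of 0.01 RPM is coarse. The median was 0.022 in the 36 pairs of 51 to 150 nt and in the 45 pairs of 151 to 300 nt, and 0.065 in the 38 pairs of 301 to 1000 nt. In the 7 pairs over 1000 nt it was 2.165. Where both widths were multiples of 25 nt (126 pairs) it was 0.016, and where either was not (25 pairs) it was 0.721, with equal values in 40 and 0 pairs. This division was made after the widths had been seen.

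**Figure D2:**
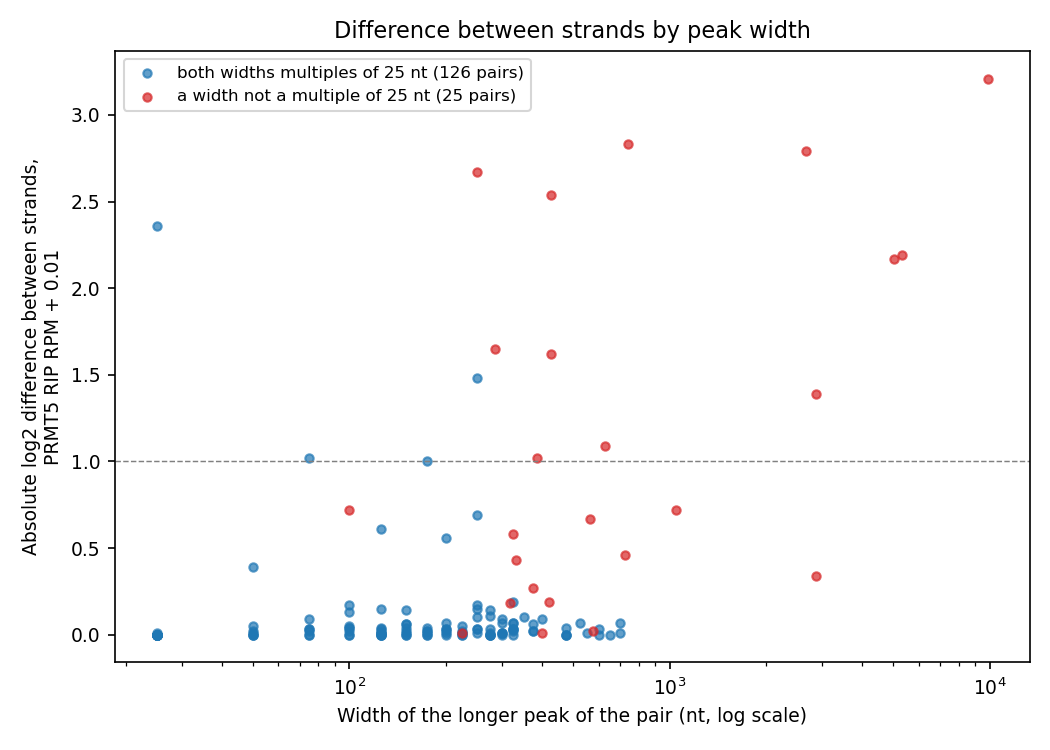
Absolute difference between the strands of a pair in PRMT5 RIP on the log2(RPM + 0.01) scale (vertical axis) against the width of the longer peak in nt (horizontal axis, log scale), 1 point per pair, with a dashed line at 2-fold. Of the 7 pairs over 1000 nt, 5 lie above the line, and of the 126 pairs with both widths a multiple of 25 nt (blue), 4 do.

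Beyond the mirror-image pairs, opposite-strand peaks that shared less of their span differed more in RPM. RPM is not scaled to peak width, and peaks that share little of the longer one differ in width or position. The values below therefore cannot show how alike the strands were over the shared part. The median absolute log2 difference in PRMT5 RIP was 0.198 in 104 pairs that shared 75% to 90% of the longer peak, 0.835 in 160 that shared 50% to 75%, 1.409 in 251 that shared 25% to 50%, and 1.822 in 1438 that shared less than 25%. More than a 2-fold difference was seen in 10.6% of the mirror-image pairs and in 71.9% of the pairs with the least overlap. At the threshold itself, 3 pairs shared exactly 90%. These were BCL2L12 with IRF3 (5.37 and 5.76 RPM in PRMT5 RIP), CTBP1-AS with CTBP1 (3.49 and 3.92) and a pair of SLC5A10 with GRAP (4.15 and 4.6). Just outside were a pair at APMAP with 89.60% (2.03 and 1.90 RPM), one at FEM1A with 89.45% (2.45 and 2.62 RPM), and GCHFR with DNAJC17, 88.89% (1.57 and 1.72 RPM).

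In 22 pairs the strands differed by more than 2-fold in PRMT5 RIP, in input or in both (14 pairs), and in all 22 the stronger strand was the same in PRMT5 RIP and input. The largest difference in PRMT5 RIP was over RPL5, which encodes a protein of the large ribosomal subunit. Its plus-strand peak spanned 9882 nt, chr1:92832040-92841921, and had 2112 RPM in PRMT5 RIP with 978.71 RPM in input, the highest values of all members. The minus-strand peak, assigned to DIPK1A, spanned 9150 nt and had 228.32 RPM and 106.85 RPM. The RPL5 strand was thus 9.25-fold higher in PRMT5 RIP and 9.16-fold higher in input, and PRMT5 RIP over input was 2.16 and 2.14 on the 2 strands. The plus-strand peak lists 3 gene identifiers, whose reads cannot be told apart in its value.

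The other wide pairs named here also had one strong and one weak strand, in PRMT5 RIP as in input. PRDX2, a peroxiredoxin that breaks down hydrogen peroxide, had 467.18 RPM in PRMT5 RIP with 246.39 RPM in input on its own strand, the minus strand. The plus-strand peak over it had 104.14 RPM and 59.54 RPM, so that the PRDX2 strand was 4.49-fold and 4.14-fold higher. At UFC1, which encodes the conjugating enzyme of the ubiquitin-like protein UFM1, the plus-strand peak had 96.19 RPM in PRMT5 RIP with 91.74 RPM in input, against 21.13 and 19.96 RPM on the minus strand. Both UFC1 peaks were close to input, at 1.05 and 1.06 times its RPM. TUBA1B, an alpha-tubulin gene, had 422.65 RPM in PRMT5 RIP with 251.65 RPM in input, and the plus-strand peak opposite it had 160.71 and 103.78 RPM. That peak, chr12:49128761-49131622, is named for TUBA1B-AS1 because it touches the start of this gene at position 49131606. Most of the peak lies over TUBA1B and outside TUBA1B-AS1. DHPS, which acts in making the hypusine residue of eIF5A, and WDR83 overlap tail-to-tail in a pair of 2666 and 2657 nt. This pair had 4.76 RPM in PRMT5 RIP with 2.32 RPM in input on the WDR83 strand. On the DHPS strand it had 0.68 and 0.38 RPM.

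Among shorter pairs the strands also differed by several fold at a few genes. PPP1R14B, an inhibitor of protein phosphatase 1, had 226.03 RPM in PRMT5 RIP with 43.50 RPM in input, and PPP1R14B-AS1 had 31.85 and 10.78 RPM. Here the strands differed more in PRMT5 RIP, 7.10-fold, than in input, 4.04-fold, so PRMT5 RIP over input was 5.20 on the PPP1R14B strand and 2.95 on the other. FAAP20, a protein of the Fanconi anemia core complex, had 2.09 RPM in PRMT5 RIP with 0.94 RPM in input, against 0.32 and 0.15 RPM on the strand of PRKCZ, a protein kinase C. CD27, a costimulatory receptor of T cells, had 5.02 RPM in PRMT5 RIP with 1.87 RPM in input, and CD27-AS1 had 2.36 and 0.99 RPM. In these 3 pairs the gene with the higher level in PRMT5 RIP also had the higher level in input. P4HB, a protein disulfide isomerase, had 20.08 RPM in PRMT5 RIP on its own strand and 6.52 RPM opposite it, with 6.98 and 2.77 RPM in input. RANGRF and SLC25A35 had 8.51 and 2.71 RPM in PRMT5 RIP, with 6.82 and 2.24 RPM in input. RTN4RL2 had 3.76 RPM on the plus strand and 0.64 RPM on the minus strand in PRMT5 RIP, with 0.95 and 0.22 RPM in input. The weaker strand was thus the one opposite P4HB, the one of SLC25A35 and the minus strand at RTN4RL2. MMP24, a membrane metalloproteinase, and MMP24OS had 3.18 and 8.88 RPM in PRMT5 RIP, with 1.75 and 4.06 RPM in input.

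PRMT5 RIP over input was close to the same on both strands in most pairs. The difference between the 2 log2 ratios had a median size of 0.02 over the 151 pairs, and it was over 0.5 in 7 pairs and over 1 in 4. Among the 22 pairs with over 2-fold between strands its median size was 0.36, from 0.01 to 1.31, and 15 of them had at most 0.5. The 4 pairs over 1 were TANGO2, RPL30 and 2 of the RAET1E-AS1 and LRP11 pairs, and were chosen for mention after their values were seen. At TANGO2 the plus strand had 0.86 RPM in PRMT5 RIP with 0.19 RPM in input, and the minus strand 1.32 and 0.75 RPM. At the ribosomal protein gene RPL30 the plus strand had 19.45 and 17.41 RPM and the minus strand 14.82 and 6.37 RPM. In 14 of the 22 pairs a width was not a multiple of 25 nt.

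**Figure D3:**
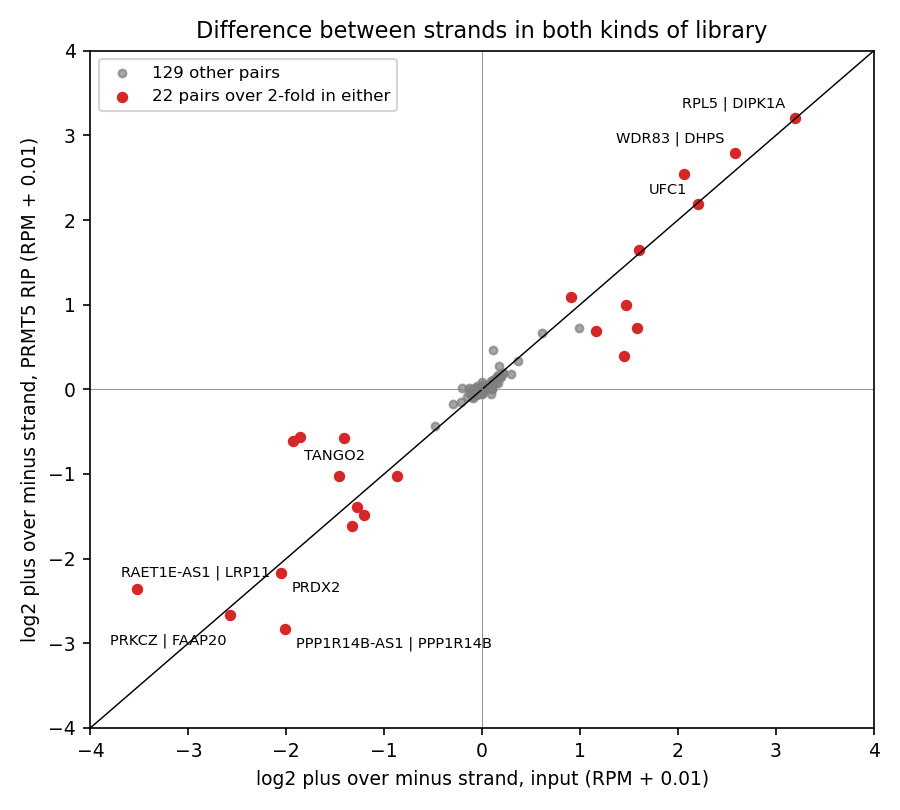
Difference between the strands of each pair, log2 of the plus over the minus strand with 0.01 added to each RPM, in PRMT5 RIP (vertical axis) against input (horizontal axis), with the line of equality. The 22 pairs over 2-fold in either (red) all lie in the lower left or upper right part, where the stronger strand is the same in both, and RPL5 with DIPK1A lies on the line at the top right.

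Without a filter on level or width, the members as a group were somewhat higher in PRMT5 RIP over input than the list. The RPM in PRMT5 RIP was at least 2 times that in input at 210 of the 302 members (69.5%), against 56.6% of all peaks, 53.1% of peaks that overlapped the opposite strand by less, and 57.1% of peaks without such an overlap. Since the peaks of a pair go together, this was both peaks in 99 pairs, 1 peak in 12 and neither in 40. The log2 ratio, with 0.01 RPM added to each value, had a median of 1.27 over the members, with quartiles at 0.88 and 1.97, against 1.10 over all peaks. PRMT5 RIP was below input at 6 members (1.99%), against 3.84% of all peaks. The median member had 2.56 RPM in PRMT5 RIP with 0.785 RPM in input, against 1.95 and 0.83 RPM over the list. With a requirement of 0.5 RPM in input on both strands, 88 pairs remained and 59.7% of their peaks were at least 2-fold, with a median log2 ratio of 1.12. These are close to the values of all peaks without that requirement. The list was not taken under the same requirement or at matched widths. No test of the difference from the list was possible with 1 pooled value per group.

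**Figure D4:**
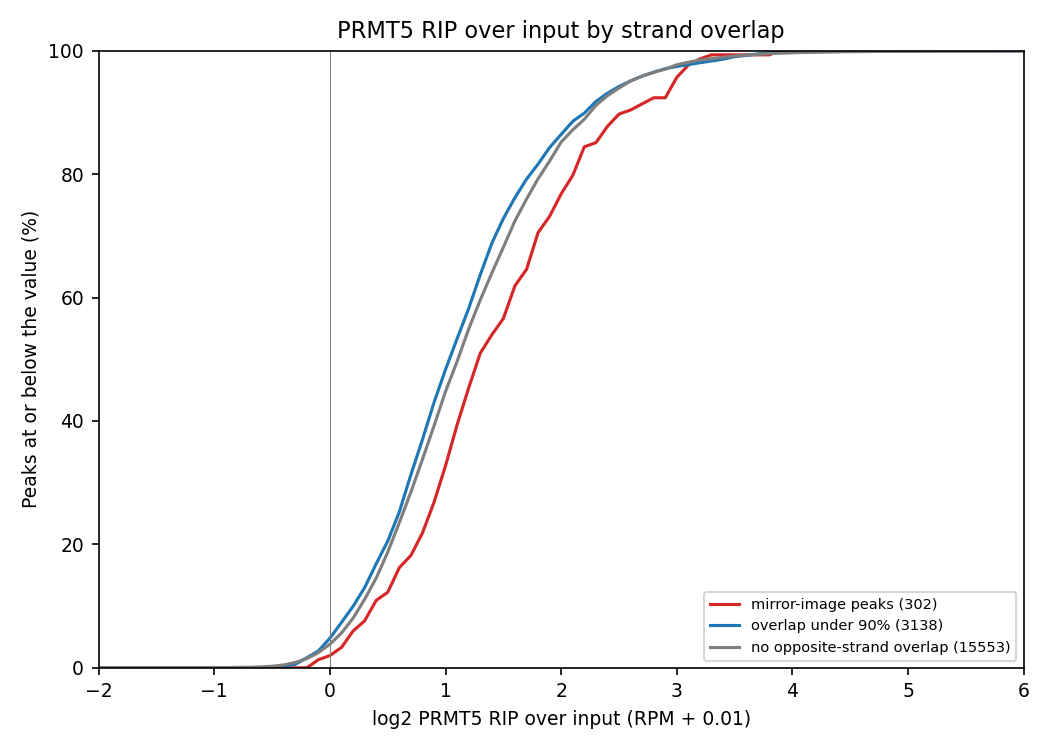
Share of peaks in percent (vertical axis) at or below a given log2 ratio of PRMT5 RIP over input with 0.01 added to each RPM (horizontal axis), for the 302 mirror-image peaks, the 3138 peaks with a smaller opposite-strand overlap and the 15553 without one. The curve of the mirror-image peaks lies to the right of the others over most of its range, with medians of 1.27, 1.03 and 1.11.

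Pairs at gene starts had the higher ratios. The 39 pairs that touched a promoter window had a median log2 ratio of 1.73, with 68 of their 78 peaks at least 2-fold (87.2%), and the 105 other pairs that could be assessed had 1.12, with 132 of 210 (62.9%). The 7 pairs on chromosome 8 are in neither group, because its windows were not used. Among all peaks of the list that touched a window of their own strand, 3933 in number, 69.2% were at least 2-fold and the median log2 ratio was 1.34, and the 52 members of this kind had 84.6% and 1.58. The median absolute log2 difference between strands in PRMT5 RIP was 0.025 in the pairs that touched a window and 0.018 in those 105 others. The pair of KLHL18, shown above with the KIF9 window that holds all of its shared bases, had 0.55 RPM in PRMT5 RIP and in input 0.21 RPM, on each strand.

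Among the pairs with a mean input RPM of at least 1, those described here with the largest ratios had nearly equal strands. ARL6IP4, whose shared bases are shown above, had 128.39 and 122.25 RPM in PRMT5 RIP on the plus and minus strand, against 15.20 and 14.02 RPM in input, which is 8.45 and 8.72 times input. EDEM1, which acts in the degradation of misfolded glycoproteins, had 11.51 and 11.54 RPM, with 2.0 and 2.02 RPM in input. Also high were BCL2L12 with IRF3, a transcription factor of the interferon response, at 4.37 and 4.4 times input, and the ubiquitin ligase ARIH1, at 4.28 and 4.29 times input. Without the requirement on input, the highest mean log2 ratio with 0.01 RPM added was at ST20 and ST20-AS1, which had 8.05 and 7.91 RPM in PRMT5 RIP against 0.55 and 0.53 RPM in input.

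At the other end, 3 pairs were below input on both strands, and these held all 6 members below input. Among them were ALDOA (17.16 and 15.70 RPM in PRMT5 RIP against 18.34 and 16.62 RPM in input) and PRELID1, a mitochondrial lipid transfer protein, with MXD3. The PRELID1 and MXD3 pair was 25 nt wide and had 2.88 and 2.87 RPM in PRMT5 RIP with 3.15 and 3.14 RPM in input. PSMC1, an ATPase of the proteasome, with NRDE2 had 1.85 and 1.84 RPM in PRMT5 RIP with 1.75 RPM in input on each strand. The pair over FTH1, the ferritin heavy chain, and BEST1, a chloride channel, was also close to input at a high level. Its plus-strand peak had 231.35 RPM in PRMT5 RIP against 201.76 RPM in input. The minus-strand peak had 202.95 RPM against 174.33 RPM. The strand of neither gene was known here, so these values are not given to a gene.

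**Figure D5:**
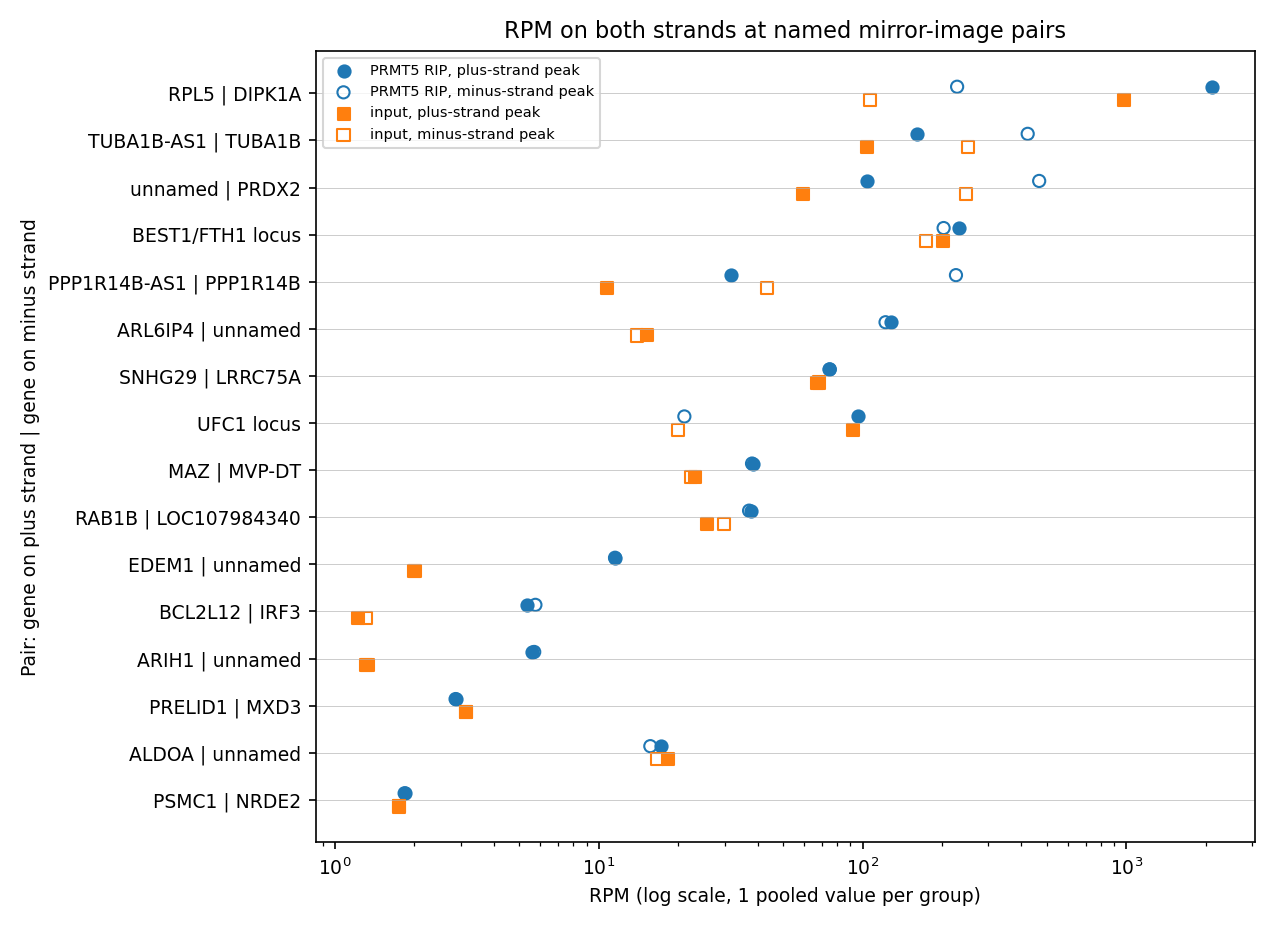
RPM (horizontal axis, log scale) of the plus-strand peak (filled) and the minus-strand peak (open) in PRMT5 RIP (circles) and input (squares) at the 10 pairs with the highest mean RPM and at 6 others with a large or small ratio, 1 pooled value per point. ARL6IP4 and EDEM1 have both strands far above input, and RPL5, TUBA1B, PRDX2, PPP1R14B and UFC1 have strands well apart in PRMT5 RIP and input.

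RefSeq genes of known strand were on both strands at 50 pairs, on the plus strand only at 46, on the minus strand only at 32 and on neither at 23, which include the 7 pairs of chromosome 8, where strands of genes were not used here. Of the 50, 22 were tail-to-tail, 19 head-to-head and 8 had one gene inside the other, and the genes of the TUBA1B pair were head-to-head without overlap. Both genes were protein-coding in 24, one was an lncRNA in 25 and both in 1. At head-to-head pairs, 28 of the 38 genes had the centre of the pair within 500 nt of their own start, at a median of 255 nt. At tail-to-tail pairs none of the 44 genes did, and 15 had it within 500 nt of their 3′ end. The classes fix this in part, since the peaks touch genes that overlap at their starts or at their 3′ ends. The median log2 ratio of PRMT5 RIP over input was 1.48 over the peaks of head-to-head pairs, 1.02 over tail-to-tail pairs and 1.08 where one gene lay inside the other. The strands differed by a median of 0.031, 0.009 and 0.001 in PRMT5 RIP, and 4, 3 and 0 of these pairs differed by over 2-fold.

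Among protein-coding genes on both strands, most of the highest pairs had like levels on each. ZNF593 and ZNF593OS had 26.71 and 26.67 RPM in PRMT5 RIP with 12.53 and 12.52 RPM in input. KHNYN and SDR39U1, tail-to-tail, had 18.64 and 19.82 RPM, with 8.96 and 9.61 RPM in input. CCDC107 and ARHGEF39 had 13.04 and 12.20 RPM, with 9.25 and 8.68 RPM in input. UQCRQ and GDF9, whose 73 shared nt are given above, had 10.74 and 10.93 RPM in PRMT5 RIP with 3.59 and 3.66 RPM in input, both 2.99 times input. Neither gene had a peak that was free of opposite-strand overlap. SLC5A10, a sugar transporter, and GRAP, an adaptor in lymphocyte signaling, had 9.77 and 9.79 RPM, SFT2D3 and WDR33, which acts in the polyadenylation of mRNA, 8.10 and 8.06 RPM, and SMPD2, a sphingomyelinase, and PPIL6 6.09 and 6.14 RPM.

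In 31 pairs a named gene lay opposite a gene named as its antisense, divergent or opposite-strand partner or that of another gene. The other gene was higher in PRMT5 RIP in 15 of them, and the values were equal in 8. Higher here counts any difference, down to the rounding step of 0.01 RPM. Of the 31 pairs, 6 differed by over 2-fold, with the other gene higher in 5. Of 19 gene pairs listed from general knowledge as overlapping, 5 had a mirror-image pair. Whether the others lacked a peak on a strand or had peaks that overlapped by less was not separated. MALAT1, an abundant nuclear lncRNA, had 3.89 RPM in PRMT5 RIP with 1.15 RPM in input in this peak. The minus-strand peak, named for its antisense RNA TALAM1, had 3.91 and 1.16 RPM. TALAM1 was given to that strand because no gene of known strand was there. Whether the same reads entered both values was not tested, so these are not levels of the TALAM1 RNA. PRMT5 itself and PRMT5-AS1, tail-to-tail, had 3.61 and 3.59 RPM in PRMT5 RIP with 1.89 and 1.85 RPM in input over 150 nt. MAPKAPK5, a stress-activated kinase, and MAPKAPK5-AS1 had 9.79 and 9.33 RPM, with 2.33 and 2.18 RPM in input. ERCC1, a subunit of a DNA repair nuclease, and POLR1G, a subunit of RNA polymerase I, had 0.20 RPM in PRMT5 RIP with 0.09 RPM in input on each strand, and WDR83 with DHPS is given above. Further pairs of high level were SNHG29, a host gene of small nucleolar RNAs, with LRRC75A (74.33 and 75.19 RPM in PRMT5 RIP), the zinc finger factor MAZ with MVP-DT (38.36 and 38.14 RPM) and the GTPase RAB1B with LOC107984340 (37.67 and 37.17 RPM).

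The members carried 284 of the 9636 gene identifiers in the list, and 94 of these had no other peak than members. For 163 of the 284 (57.4%) no peak was free of opposite-strand overlap, against 17.5% of all identifiers in the list. The rule fixes this in part, since every such identifier has an overlapping peak, and 88 have no other. Free peaks were found for the genes of both strands at 28 pairs, of one strand at 74 and of neither at 49. Where only one strand had a gene with free peaks, that strand was higher in PRMT5 RIP in 35 pairs, equal in 16 and lower in the rest, and of the 8 such pairs over 2-fold it was the higher in 6. Of 1428 peaks with genes of both strands over their centre, 96 (6.72%) were mirror-image peaks, 841 overlapped the opposite strand by less, and 491 (34.4%) did not overlap a peak there.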

How the data were processed

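PRMT5 RIP and input RNA of Jurkat cells were sequenced by the study. The authors deposited 1 peak list, with RPM values pooled over the libraries of each group and rounded to 0.01. The submitters' processing notes name fastp, HISAT2 and hg38, and the peak caller, the pooling and the strand setting are not given in the sources used here. The list also holds the authors' own comparison of PRMT5 RIP with input (a fold change, p-value and FDR), which was not used.

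Positions count from 1, for which 1 was added to each deposited start. Pairs were found with Python 3.11.15, pandas 2.3.3 and numpy 2.4.6, and the pair search was tested on simulated data. Figures were drawn with matplotlib 3.10.9. Ratios and differences between strands were taken on the log2(RPM + 0.01) scale, which understates changes of low peaks. No test across samples could be made from pooled values, and no interval is given for a value because the depth is unknown. A binomial interval of the share of members at least 2-fold over input served only to judge the alternatives. It counted each member as independent although the peaks of a pair go together, so it may be too narrow.

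Genes were named from RefSeq (GRCh38.p14) where they touched the peak on its strand by at least 1 base, small RNAs left out. The strand of a gene came from the promoter table, and a gene with no strand there was given to the strand that had no gene of known strand, or else named as the locus. Reads of overlapping and antisense genes are uncertain. Promoter windows of chromosome 8 were not used here.

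The pairs named were the 10 with the largest mean RPM in PRMT5 RIP, the 5 with the largest and 5 with the smallest ratio among 73 pairs with a mean input of at least 1 RPM, the 10 with the largest difference between strands at a PRMT5 RIP RPM of at least 0.5 on both strands or over 1 on either, the 3 widest, the 10 highest with protein-coding genes on both strands, the listed overlapping genes, and those at the threshold, of which some are not reported here. The other pairs named, among them those of identical span, were picked with their values in view. The members and lists were chosen with earlier results of these data known. Alternatives covered the overlap, filters on RPM and width, several identifiers, the pseudocount and the gene rule.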

Additional observations from a re-analysis of the deposited data

How the results depend on the processing

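No paired analysis was possible because each peak has only pooled values, 1 per group, and leaving out a replicate was not possible either. With an overlap of at least 80% there were 229 pairs (458 peaks), with median strand differences of 0.044 in PRMT5 RIP and 0.078 in input and a median log2 ratio of 1.22. With at least 95% there were 96 pairs (192 peaks), with 0.012, 0.014 and 1.42, 14 pairs over 2-fold and 75% of peaks at least 2-fold over input. With identical spans there were 12 pairs (24 peaks), with 0.000, 0.000 and 1.73, 9 equal pairs in PRMT5 RIP and 9 in input, and 3 pairs over 2-fold. With at least 0.5 RPM in input there were 88 pairs (176 peaks), with 0.031, 0.050 and 1.12, 10 and 11 equal pairs, 14 over 2-fold, and 59.7%. With at least 1 RPM in PRMT5 RIP the values were 0.028, 0.047 and 1.33, with 16 and 20 equal pairs. With peaks of at least 50 nt they were 0.028, 0.047 and 1.42, with 24 equal pairs in PRMT5 RIP. The median log2 ratio was 1.31 with peaks of at most 5000 nt, 1.32 without peaks of several identifiers, 1.12 with a pseudocount of 0.1 and 0.68 with one of 1. The pseudocount of 1 also gave 13 pairs over 2-fold and a median strand difference of 0.013 in input, and 63 pairs were within 1% in PRMT5 RIP. Pairs with both widths a multiple of 25 nt, an alternative chosen after seeing the data, gave 0.019 in input, 8 pairs over 2-fold and a ratio of 1.33. The other 53 values stayed within 1.5 times for counts, within the binomial interval for the share, or equal to 2 decimals for medians, and leaving out the mitochondrial genome changed none because no pair lies there, and the cause of the shifts was not tested beyond the smaller or larger sets of pairs that the settings make.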
